A study of Mus musculus with 4 samples.

Results

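The keratins and claudins of mouse colon were taken as every gene whose symbol in the deposited files is Krt or Cldn followed by digits alone. This gave 73 of the 23699 gene entries, made up of 47 keratins and 26 claudins. All 73 had an estimate with status OK in every library. The 2 mutant libraries carried the genotype Nkx2.2flox/flox; Villin-Cre/+, in which Cre is driven by the Villin promoter of intestinal epithelium. The 2 control libraries carried Nkx2.2flox/+, with no Cre in the label. A floxed allele was thus shared by all 4 libraries, and so were the mixed strain, the age of 6 weeks and the tissue, 2 cm of colon taken after the caecum. Whether replicate libraries stem from different animals is not in the labels, so p-values cover only variation among these 4, which may be technical.

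Keratins are the intermediate filament proteins of epithelia. A filament forms only when an acidic type I keratin pairs with a basic type II keratin, and simple epithelia such as the gut lining build theirs from type II Krt8 and the type I keratins Krt18, Krt19 and Krt20. Mice without Krt8 are known for an inflamed and overgrown colon lining. Claudins are membrane proteins of the tight junction, the seal between neighbouring epithelial cells; some close the gap between the cells, and others line it with pores for small ions and water. Nkx2-2 is a transcription factor of the hormone-secreting enteroendocrine cells, and the comparison asked whether genes of the whole epithelium differed between mutant and control colon.

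Levels are given as FPKM (fragments scaled to the length of the transcript and the size of the library), which allows levels of different genes to be compared per length. Depth relative to control 1 was 0.464 in mutant 1, 1.03 in mutant 2 and 1.13 in control 2. Nkx2-2 itself stood at 0.125 and 0.351 FPKM in the mutants, against 0.724 and 0.609 FPKM in the controls. Of 10 enteroendocrine markers, 4 fell (Chga, Chgb, Tph1 and Insl5) and 1 rose (Ghrl) past an adjusted p of 0.05 in limma. Of all 13997 tested genes, 0.0643% passed. The marker list was chosen with earlier results of these data known. The tissue label was matched by 14 colon epithelial genes, among them Epcam, Cdx2 and Car1, which summed to 24000 and 23462 FPKM in the mutants and 22221 and 30056 FPKM in the controls. Most of this sum was Car1 alone, with 17320 and 16278 FPKM in the mutants and 15112 and 22062 FPKM in the controls. Across the 13997 tested genes the median log2 change of mutants against controls was −0.17, and 82.6% of genes lay below 0, so changes of the members with at least 5 FPKM and of those discussed singly are also given relative to that median. After rescaling by median ratios it was −0.0054.

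Colon RNA held a short list of keratins. Of 47 keratins, 11 averaged 1 FPKM or more and 5 averaged 5 FPKM or more. These 5, Krt8, Krt19, Krt20, Krt18 and Krt7, made up between 99.6% and 99.7% of all keratin FPKM in each library. They are the keratins of simple epithelia. Keratins in all accounted for 0.675% to 0.900% of the FPKM of a library, and Krt8 ranked between 18 and 21 among all gene symbols.

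Krt8, the most abundant type II keratin, stood at 1866 and 2108 FPKM in the mutants and 1693 and 2215 FPKM in the controls. Krt19, the shortest keratin and a type I partner of Krt8, had 1384 and 1590 FPKM in the mutants and 1362 and 1697 FPKM in the controls. Krt20, a type I keratin of mature cells at the crypt top, had 1053 and 1265 FPKM in the mutants and 851 and 1168 FPKM in the controls. The order Krt8 over Krt19 over Krt20 held in each of the 4 libraries, and for all 3 genes the ranges of mutants and controls overlapped. Krt18, the partner of Krt8 in liver and many other simple epithelia, was far lower, at 215 and 235 FPKM in the mutants and 202 and 272 FPKM in the controls. Krt7, a type II keratin of ducts, bladder lining and mesothelium, had 99.6 and 108 FPKM in the mutants and 121 and 135 FPKM in the controls. Krt7 was the member of these 5 whose mutant values both lay under both control values.

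**Figure D1:**
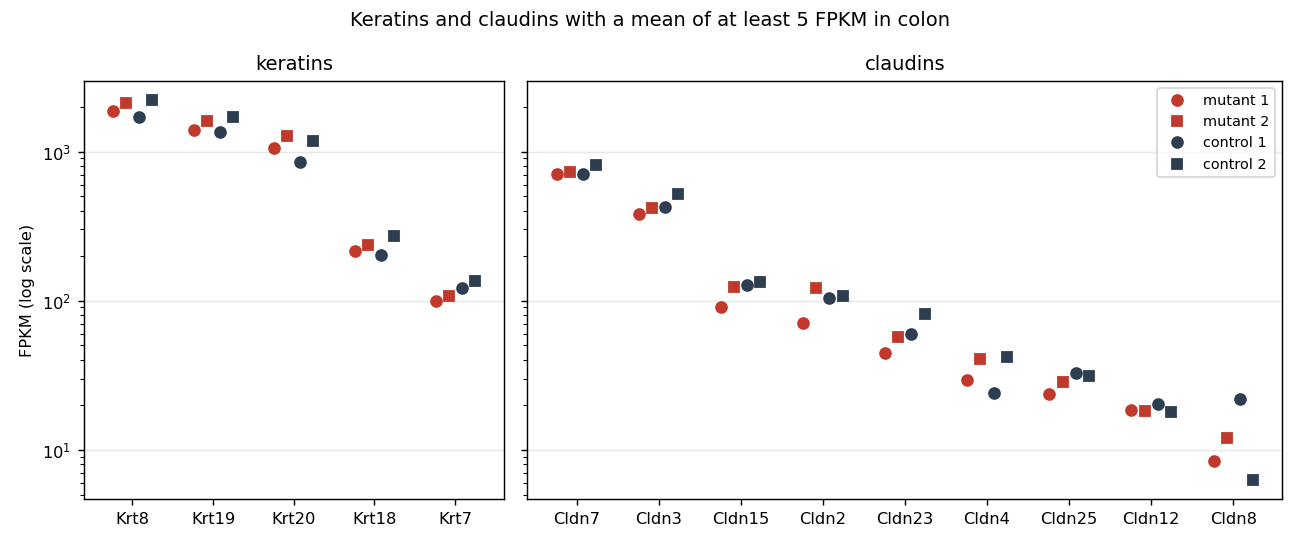
FPKM on a log axis of the 5 keratins (left) and 9 claudins (right) with a mean of at least 5 FPKM, with the mutant libraries (red) left of the control libraries (dark) and circles and squares for replicate 1 and replicate 2. Krt8 lies between 1693 and 2215 FPKM and Cldn8, the lowest of the 14, between 6.27 and 21.9 FPKM.

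The 5 genes come from 2 clusters. On mm9, 25 of the 26 type I keratins lie on chromosome 11, and all 21 type II keratins lie on chromosome 15. Krt18 is the type I exception: it lies on chromosome 15 (101858647 to 101862457, plus strand), 23.9 kb from Krt8 (101827142 to 101834773, minus strand). Krt20 (99289717 to 99299467, minus strand) and Krt19 (100002126 to 100007233, minus strand) lie in the type I cluster on chromosome 11. Neighbours of the abundant genes in the clusters were low. Krt12, the cornea keratin, lies 6.14 kb downstream of Krt20 on the same strand and averaged 3.55 FPKM. Krt83 lies 3.68 kb beyond the end of Krt7 on the other strand and averaged 1.39 FPKM. The library kit is given without its strand handling, so reads from neighbouring genes on opposite strands could not be told apart where transcripts overlap.

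Stretches before gene starts are shown for the partners Krt8 and Krt18, the gut keratin Krt20, the neighbours Cldn3 and Cldn4 and the pore former Cldn2. They were not chosen by level alone: Cldn7, Cldn15, Krt7, Cldn12 and Cldn25 also had an entry and are not shown. The table held no entry for Krt19, Cldn23 and Cldn8. The stretches are the 100 bases before the start, from RefSeq on GRCm38.p6, read towards the gene, with the motifs found in capitals.
Krt8 (chr15:102004343-102004442, minus strand): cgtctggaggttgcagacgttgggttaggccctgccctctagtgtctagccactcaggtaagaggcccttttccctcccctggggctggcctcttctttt
Krt18 (chr15:102028116-102028215, plus strand): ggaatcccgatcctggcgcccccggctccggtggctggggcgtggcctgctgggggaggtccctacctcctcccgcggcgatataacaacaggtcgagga
Krt20 (chr11:99438154-99438253, minus strand): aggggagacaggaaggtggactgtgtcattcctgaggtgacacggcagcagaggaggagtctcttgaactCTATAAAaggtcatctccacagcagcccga
Cldn3 (chr5:134986114-134986213, plus strand): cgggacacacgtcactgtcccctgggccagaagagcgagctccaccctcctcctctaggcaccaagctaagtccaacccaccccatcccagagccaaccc
Cldn4 (chr5:134946935-134947034, minus strand): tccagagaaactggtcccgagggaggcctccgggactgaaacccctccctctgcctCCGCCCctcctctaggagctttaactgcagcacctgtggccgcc
Cldn2 (chrX:139800708-139800807, plus strand): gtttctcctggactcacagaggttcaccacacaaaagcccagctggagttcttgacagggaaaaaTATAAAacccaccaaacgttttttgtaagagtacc
In Krt20 the capitals hold a TATA box (TATAAA), whose first base lies at −29 from the start, and 1 base earlier an overlapping CDX motif (TTTATNG, read on the other strand). In Cldn2 the TATA box starts at −35, and in Cldn4 a GC box (GGGCGG, read on the other strand) starts at −44.

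Motifs were searched on both strands of the 250 bases before each RefSeq start, and a gene with several starts counts once. The table held 54 of the 73 members, 11 of the 14 with at least 5 FPKM among them. TATAAA occurred in 2 of these 11, Krt20 and Cldn2, in 29.6% of all matched members and in 14.3% of all genes of the table. GGGCGG occurred in 6 of these 11 (Krt7 and 5 claudins), in 24.1% of all matched members and in 35.4% of all genes. CCAAT occurred in 1 of the 11, Cldn12, in 37.0% of all matched members and in 37.5% of all genes. The letters TTTATNG, the core bound by the gut transcription factors Cdx1 and Cdx2, occurred in 1 of the 11, Krt20, in 25.9% of all matched members and in 11.3% of all genes.

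Keratins of skin and hair were at or near the floor. Of 10 keratins of stratified epithelia, 9 stayed under 1 FPKM in every library. The exception was Krt10, a keratin of the upper skin layers, with 2.28 and 1.61 FPKM in the mutants and 1.06 and 2.59 FPKM in the controls. A further 8 keratins, most of them hair and hair follicle genes, were listed at 0 FPKM throughout. The authors' deposited table gives some of these 8 a mean normalized count above 0 in the mutants, up to 5.13 for Krt28. Among 15 marker genes of squamous keratinocytes, Krtdap, Dsg1a, Dsg3 and Sprr1b were at 0 in every library, and the summed level (109 and 126 FPKM in the mutants, 94.7 and 108 FPKM in the controls) was nearly all Sprr1a. Krt17 at a mean of 0.479 FPKM and Krt36 at 0.380 FPKM were the keratins just under the test's minimum of 0.5 FPKM. Krt222 at 0.507 FPKM was the keratin just above it.

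Among 13 hair keratins, Krt84 and Krt83 reached a mean of 1 FPKM. Krt84, a type II keratin of hair and tongue, had 3.15 and 2.32 FPKM in the mutants and 7.25 and 3.34 FPKM in the controls. These values rested on 52 and 85 fragments in the mutants and 258 and 134 in the controls, as the width of the deposited intervals implies. Both mutants lay below both controls, and control 1 was the highest library. The files place Krt84 inside the span of Krt85, another hair keratin, so reads of the pair may have been split by the counting. The file's Krt83 (NM_001003668) is Krt87 in current RefSeq, also a type II hair keratin. It had 0.846 and 1.22 FPKM in the mutants and 1.77 and 1.71 FPKM in the controls, with both mutants below both controls. Its implied fragments were 8.3 and 29.4 in the mutants and 42.3 and 47.0 in the controls, and hair keratins of this group are near-copies of each other, so its level is uncertain. Hair shaft markers summed to 2.48 and 1.14 FPKM in the mutants and 2.14 and 1.69 FPKM in the controls, with Krtap3-2 and Krtap8-1 at 0 in every library. Their part in the Krt84 and Krt83 values was not tested.

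The remaining keratins between 0.5 and 5 FPKM varied within groups. Krt12 had 4.09 and 3.48 FPKM in the mutants and 0.202 and 6.44 FPKM in the controls, resting on 47 and 88 implied fragments in the mutants and 5 and 180 in the controls. The lowest and the highest value of Krt12 were both controls. Krt23, a type I keratin, had 1.51 and 1.50 FPKM in the mutants and 1.15 and 2.52 FPKM in the controls. Krt80, a type II keratin, had 0.548 and 1.07 FPKM in the mutants and 1.74 and 0.714 FPKM in the controls. Krt222, a keratin-like gene of the type I cluster, had 0.226 and 0.459 FPKM in the mutants and 0.736 and 0.605 FPKM in the controls. Of these 4 genes, Krt222 alone had both mutants below both controls.

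Claudins were led by Cldn7 and Cldn3. Of 26 claudins, 12 had a mean of at least 1 FPKM and 9 of at least 5 FPKM. Cldn7, which sits along the sides of gut epithelial cells and is needed for an intact colon lining in mice, had 704 and 727 FPKM in the mutants and 702 and 816 FPKM in the controls. Cldn3, a sealing claudin, had 380 and 420 FPKM in the mutants and 424 and 517 FPKM in the controls. Cldn7 gave 46.0% to 51.0% and Cldn3 27.0% to 29.3% of claudin FPKM in a library, and Cldn7 exceeded Cldn3 in all 4 libraries. The ranges of mutants and controls overlapped for Cldn7 and did not for Cldn3.

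Pore-forming claudins came next. Cldn15, the sodium pore of the intestine, had 91.1 and 123 FPKM in the mutants and 127 and 134 FPKM in the controls. Cldn2, a pore for cations and water of crypt cells, had 70.6 and 122 FPKM in the mutants and 103 and 107 FPKM in the controls. Cldn15 exceeded Cldn2 in each library, both mutants lay below both controls for Cldn15, and for Cldn2 the mutants spanned the controls. Cldn10, a further pore former, had 1.86 and 0.799 FPKM in the mutants and 0.824 and 1.13 FPKM in the controls. Cldn17, an anion pore of the kidney, averaged 0.0896 FPKM.

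Other claudins filled the middle of the range. Cldn23, a claudin of surface colonocytes, had 44.8 and 57.0 FPKM in the mutants and 59.4 and 81.2 FPKM in the controls, with both mutants below both controls. Cldn4, a barrier claudin 39.3 kb from Cldn3 on chromosome 5, had 29.3 and 40.8 FPKM in the mutants and 23.8 and 42.0 FPKM in the controls, with overlapping ranges. Cldn25 in the files has the accessions of the gene now called Cldnd1, a claudin domain protein, and had 23.8 and 28.5 FPKM in the mutants and 32.7 and 31.1 FPKM in the controls. For Cldn25 too, both mutants lay below both controls. Cldn12, an atypical claudin linked to calcium passage, had 18.5 and 18.2 FPKM in the mutants and 20.1 and 17.8 FPKM in the controls. Cldn8, which closes the distal colon to sodium leak, had 8.38 and 12.1 FPKM in the mutants and 21.9 and 6.27 FPKM in the controls. The lowest and the highest value of Cldn8 were both controls.

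3 claudins of at least 0.5 FPKM remained. Cldn5, the claudin of blood vessel walls, had 3.08 and 4.37 FPKM in the mutants and 6.60 and 5.22 FPKM in the controls. Cldn14, a cation barrier of kidney and inner ear, had 1.08 and 0.737 FPKM in the mutants and 0.885 and 1.62 FPKM in the controls. Cldn1, the main skin barrier claudin, had 0.424 and 0.806 FPKM in the mutants and 0.788 and 0.854 FPKM in the controls, a mean of 0.718 FPKM. Of these, Cldn5 had both mutants below both controls. The 13 claudins under 0.5 FPKM included those of stomach and lung (Cldn18), kidney (Cldn16), and myelin and testis (Cldn11), and also Cldn26 and Cldn27, whose accessions now belong to Tmem114 and Tmem235.

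No keratin passed the test between mutants and controls. Of 12 keratins tested, 0 passed an adjusted p of 0.05 (limma, Benjamini-Hochberg), and 0 had an unadjusted p under 0.05. Over the 25 keratins and claudins together the count was 0, against 0.0643% of all 13997 genes, and the smallest adjusted p was 0.825. In the authors' deposited table, 69 members had an adjusted p, and it was 1.0 for each, against 0.0384% of genes past 0.05 in that table. There 0 of the 69 had an unadjusted p under 0.05.

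The abundant keratins had narrow intervals. Krt8 had a log2 change of 0.034 (SE 0.19, 95% interval −0.39 to 0.46). Krt19 had −0.035 (SE 0.18, interval −0.45 to 0.38), and Krt18 had −0.059 (SE 0.19, interval −0.50 to 0.38). Krt20 had the highest of the 5, at 0.21 (SE 0.20, interval −0.25 to 0.67), and Krt7 the lowest, at −0.30 (SE 0.17, interval −0.69 to 0.087). Changes of 2-fold in either direction lie outside all 5 intervals. Relative to the median of all genes the changes were 0.20 for Krt8, 0.13 for Krt19, 0.38 for Krt20, 0.11 for Krt18 and −0.13 for Krt7. The sign of Krt19 and Krt18 thus depends on whether changes are set against that median. Without control 2 the changes, not set against it, were 0.12 for Krt19 and 0.15 for Krt18. The sign of Krt8 turned negative without control 1 (−0.16) and without mutant 2 (−0.054), and that of Krt20 without control 1 (−0.017).

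Low keratins had wide intervals. Krt84 had a log2 change of −0.77 (SE 0.34, interval −1.55 to 0.017), and Krt83 of −0.56 (SE 0.27, interval −1.17 to 0.053). Krt12 had 0.95 (SE 0.85, interval −0.99 to 2.89). Relative to the median of all genes these were −0.60, −0.39 and 1.12. The limma adjusted p was 0.825 for all 3. Without control 2, Krt12 had a change of 2.61 (limma adjusted p = 3.26e-10) and Krt84 of −1.27 (adjusted p = 0.0127), and these 2 of 25 members were called there, as were 362 of all 13997 genes (2.59%). Over the other alternatives their adjusted p ran from 0.146 to 1.0. Without control 1 Krt12 had −0.70 and Krt84 −0.26. In the fit without control 2, limma put the whole spread on the trend over all genes, and control 1 stood alone for its group.

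**Figure D2:**
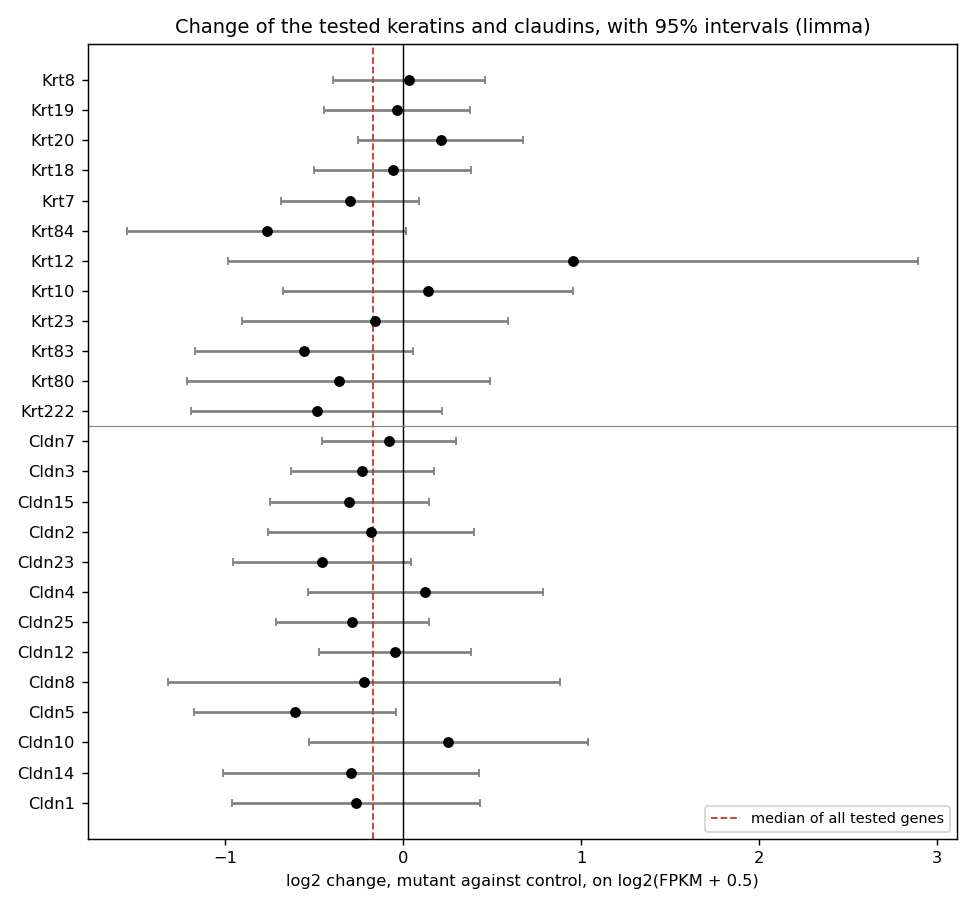
Log2 change of mutants against controls, on log2(FPKM + 0.5), for the 12 keratins (top) and 13 claudins (bottom) with a mean of at least 0.5 FPKM; points are limma estimates and bars their 95% intervals, not adjusted for the number of genes. The dashed line marks the median of all tested genes at −0.17, and Cldn5 is the member whose interval, −1.18 to −0.043, does not reach 0.

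Claudins leaned lower, as genes in general did. Of 13 claudins tested, 0 passed the adjusted threshold and 11 had a log2 change below 0, against 82.6% of all genes. Their median was −0.23, or −0.061 relative to the median of all genes, and that of the 12 keratins was −0.11, or 0.060 relative to it, with 8 below 0. The keratin median was 0.0068 to 0.052 under the 3 rescalings, which move the median of all genes as well. It was also positive with no filter (0.079) and without control 2 (0.14). It was −0.31 without control 1. The claudin median stayed below 0 in every alternative run, from −0.41 without mutant 2 to −0.054 after median ratio rescaling. Both mutants lay below both controls for 9 of the 25 members (4 keratins and 5 claudins), which is 36.0%, against 35.1% of all tested genes. Both lay above for 0 of the 25, against 3.39% of all tested genes.

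Among the claudin entries with a mean of at least 5 FPKM, Cldn23 had a log2 change of −0.45 (SE 0.22, interval −0.95 to 0.045). Cldn15 had −0.30 (SE 0.19, interval −0.75 to 0.14), Cldn25 had −0.29 (SE 0.19, interval −0.71 to 0.14), and Cldn3 had −0.23 (SE 0.18, interval −0.63 to 0.17). For all 4, both mutants lay below both controls, and the limma adjusted p was 0.825. Cldn2 had −0.18 (SE 0.25), Cldn7 had −0.081 (SE 0.16), Cldn12 had −0.045 (SE 0.19) and Cldn4 had 0.12 (SE 0.29). Cldn8, with controls far apart, had −0.22 (SE 0.48, interval −1.32 to 0.88). The median of all tested genes was itself −0.17. Relative to the median of all genes the changes were −0.29 for Cldn23, −0.13 for Cldn15, −0.12 for Cldn25, −0.061 for Cldn3, −0.053 for Cldn8 and −0.012 for Cldn2. They were 0.086 for Cldn7, 0.12 for Cldn12 and 0.29 for Cldn4.

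Cldn5, the vessel claudin, was the member with the smallest p. It had a log2 change of −0.61 (SE 0.25, interval −1.18 to −0.043, limma adjusted p = 0.825), or −0.44 relative to the median of all genes. Unadjusted p under 0.05 with a lower level in mutants was met by 4.12% of all tested genes, and with a higher level by 0.7% of them and 0 of the members. All 11 tested endothelial markers, Pecam1, Tie1 and Cdh5 among them, had changes below 0, against 82.6% of all genes, and 7 of them lay below the median of all genes. In 7 both mutants lay below both controls, against 35.1% of all genes. The markers summed to 38.0 and 40.2 FPKM in the mutants and 52.3 and 50.1 FPKM in the controls, and none of them was at 0. Their part in the Cldn5 value was not tested. In bulk tissue, fewer cells of a type and less RNA per cell cannot be told apart.

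Krt7 is made by mesothelium, the outer lining of the gut, as well as by epithelium. The 8 mesothelial genes measured summed to 50.1 and 53.5 FPKM in the mutants and 77.1 and 76.5 FPKM in the controls, most of it Cpe, an enzyme that trims prohormones in endocrine cells and neurons. Without Cpe, left out after its level was seen, the sum was 6.59 and 5.33 FPKM in the mutants and 9.21 and 11.5 FPKM in the controls. In 3 of the 4 tested ones other than Cpe both mutants lay below both controls, against 35.1% of all genes. Msln, the defining marker, had 0.525 and 0.642 FPKM in the mutants and 1.71 and 2.10 FPKM in the controls, and none of the 8 was at 0 in every library. Their part in the Krt7 value was not tested. Smooth muscle genes summed to 1454 and 1843 FPKM in the mutants and 1983 and 1776 FPKM in the controls, with 8 of 9 changes below 0, against 82.6% of all genes.

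**Figure D3:**
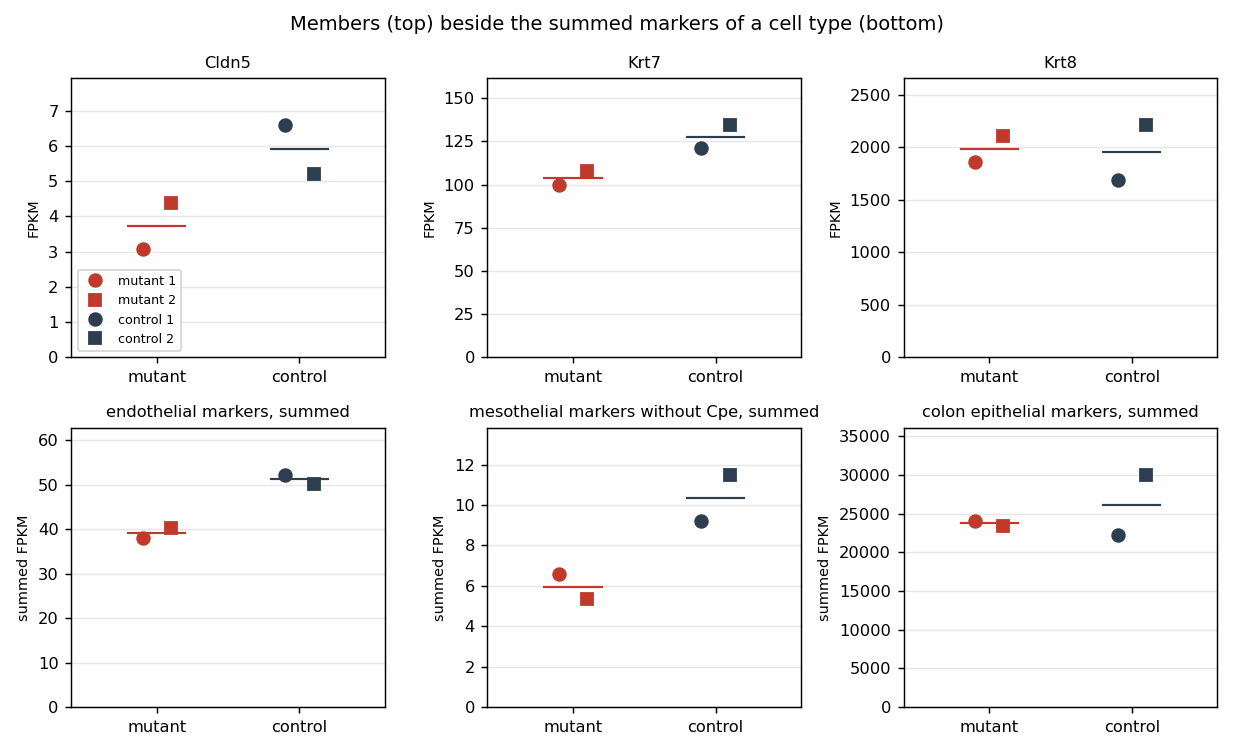
FPKM of Cldn5, Krt7 and Krt8 (top) above the summed FPKM of the endothelial markers, the mesothelial markers without Cpe and the colon epithelial markers (bottom), with mutants left of controls, a point for each library and a line for the group mean. Endothelial markers sum to 38.0 and 40.2 FPKM in the mutants and 52.3 and 50.1 FPKM in the controls. Krt8 and the epithelial sum, most of which is Car1, overlap between groups.

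Within the keratins, the shares of Krt20, Krt19, Krt18 and Krt7 did not overlap between groups, and that of Krt8 did. Such ratios within a library do not depend on the scaling between libraries and were not tested. An exact two-sided permutation test of 2 libraries against 2 cannot give a p under 0.333. The shares of a library add up to the whole, so a higher share of any keratin lowers the others. They are therefore not separate results, and how often ratios of other genes separate the groups was not computed. Krt8 gave 40.3% and 39.6% of keratin FPKM in the mutants and 39.9% and 40.2% in the controls. Krt20 gave 22.7% and 23.8% in the mutants and 20.05% and 21.2% in the controls, and Krt19 gave 29.9% and 29.9% in the mutants and 32.1% and 30.8% in the controls. Krt19 over Krt20 was therefore 1.31 and 1.26 in the mutants and 1.60 and 1.45 in the controls, without overlap. Krt7 gave 2.15% and 2.02% in the mutants and 2.85% and 2.44% in the controls, also without overlap. Krt8 over Krt18 was 8.67 and 8.96 in the mutants and 8.36 and 8.16 in the controls.

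The balance of pairing types lay within a narrow range. Type I over type II keratin FPKM was 1.35 and 1.40 in the mutants and 1.33 and 1.34 in the controls, a difference of 0.0415, with means of 1.37 ± 0.0325 in mutants and 1.33 ± 0.00795 in controls (SD, n = 2 each). All 4 values exceeded 1, so the type I keratins together had more FPKM than the type II keratins in every library. The mutants lay above the controls by 0.0185 without mutant 2 and by 0.0645 without mutant 1.

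Shares of the claudins were followed by role. Channel-forming claudins (Cldn2, Cldn10, Cldn15 and Cldn17) gave 11.9% and 15.8% of claudin FPKM in the mutants and 15.2% and 13.7% in the controls. The mutants spanned the controls, and the difference of −0.63 percentage points turned to 1.31 without mutant 1 and to 0.0890 without control 1. Cldn7 over Cldn3 was 1.85 and 1.73 in the mutants and 1.66 and 1.58 in the controls, without overlap. Cldn23 gave 3.24% and 3.67% of claudin FPKM in the mutants and 3.89% and 4.61% in the controls. Keratin over claudin FPKM was 3.36 and 3.42 in the mutants and 2.79 and 3.13 in the controls, also without overlap. The shares of Cldn7 and Cldn3 did not overlap either, while those of Cldn15, Cldn2 and Cldn4 did, as did Cldn15 over Cldn2. Apart from the channel-forming share and type I over type II, the ratios and shares were not among the planned results. How often such ratios separate the groups for other genes was not computed.

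**Figure D4:**
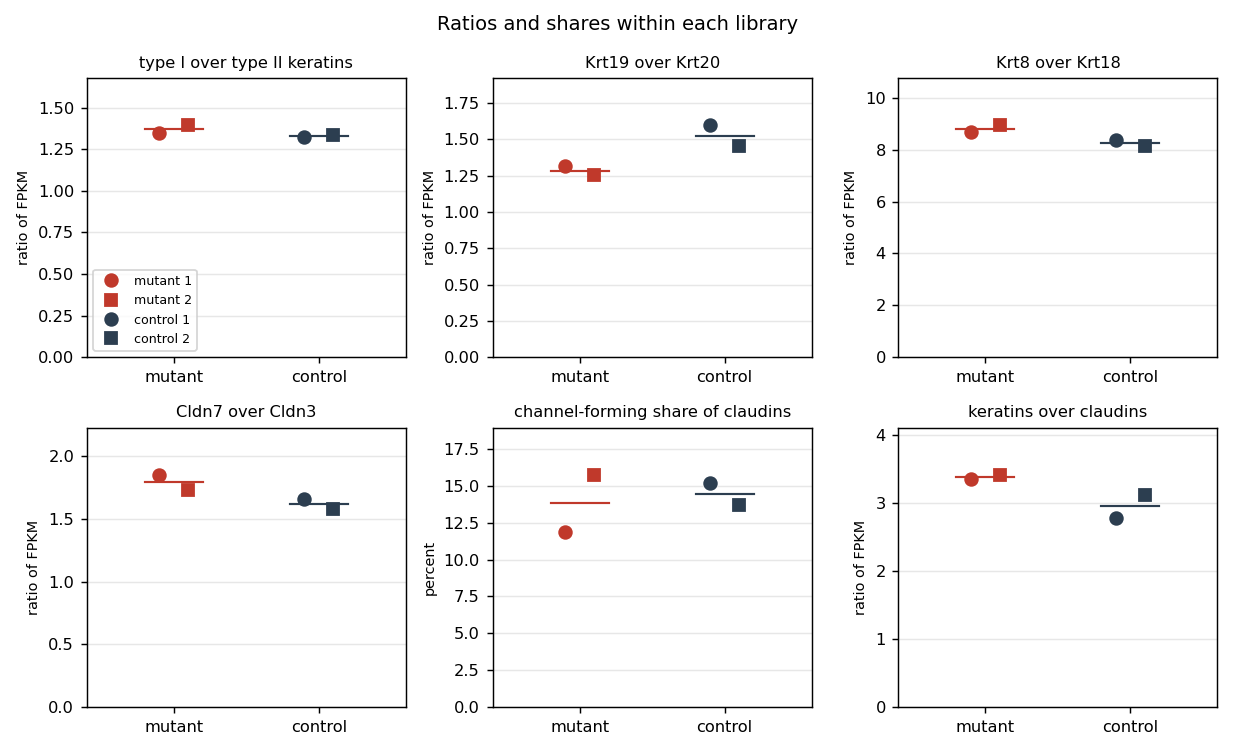
Ratios and shares of FPKM within each library, with mutants left of controls, a point for each library and a line for the group mean, on axes that start at 0. Krt19 over Krt20 is 1.31 and 1.26 in the mutants and 1.60 and 1.45 in the controls, while the channel-forming share overlaps between groups.

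Control 2 was the highest library for most abundant members. It gave the highest value for 9 of the 14 members of at least 5 FPKM, 4 of the 5 keratins among them, against 29.6% of all 9313 genes of that level. The median ratio of control 2 to control 1 was 1.31 over the 5 keratins, 1.06 over the 9 claudins and 0.966 over all those genes. Car1, an enzyme of the colon surface, had 17320 and 16278 FPKM in the mutants and 15112 and 22062 FPKM in the controls, so the epithelial sum was also highest in control 2.

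Isoforms were told apart for few members. The files hold 92 isoforms of the 73 members, 31 of them were tested, and 0 passed, against 0.00592% of all isoforms tested. In limma 0 of the 31 had an unadjusted p under 0.05. Cldn7 has a pair of RefSeq transcripts with different starts on chromosome 11. NM_016887 (69778923 to 69781388) had 548 and 594 FPKM in the mutants and 567 and 681 FPKM in the controls. NM_001193619 (69778281 to 69781388) had 156 and 133 FPKM in the mutants and 135 and 135 FPKM in the controls, which was 22.2% and 18.2% of the gene in the mutants and 19.2% and 16.6% in the controls. The later start thus carried most of the Cldn7 estimate in each library.

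Cldn12 had 3 transcripts above 0.5 FPKM, and their order changed between libraries. NM_001193661 had 8.58 and 6.69 FPKM in the mutants and 6.53 and 11.4 FPKM in the controls. NM_022890 had 5.70 and 8.01 FPKM in the mutants and 10.8 and 4.19 FPKM in the controls. NM_001193659 had 4.22 and 3.45 FPKM in the mutants and 2.76 and 2.17 FPKM in the controls. Both mutants lay above both controls, with a log2 change of 0.55, which did not pass the test. The share of all isoforms with such an order was not computed. Cldn25 rested mainly on the noncoding transcript NR_045517, at 84.6% and 92.9% of the gene in the mutants and 88.3% and 89.4% in the controls. Cldn10 rested on NM_001160099 in mutant 1 (1.86 FPKM) and on NM_021386 in mutant 2 (0.799 FPKM) and the controls (0.824 and 1.13 FPKM).

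The 48 members under the minimum of 0.5 FPKM were more often above 0 in mutant 1. Of them, 79.2% were above 0 in mutant 1 and 25.0% in mutant 2, against 45.8% in control 1 and 33.3% in control 2. Over all 9077 genes under the minimum these shares were 63.8% and 34.4% in the mutants and 35.4% and 35.4% in the controls. For 14 members mutant 1 alone was above 0, at 0.0557 to 0.441 FPKM, and the 13 with a usable interval rested on at most 4 implied fragments. Mutant 1 was also the library of lowest depth, and the part of depth in these values was not tested. Cldn9 was a low member with both mutants above both controls, at 0.348 and 0.417 FPKM in the mutants and 0.161 and 0.143 FPKM in the controls, on 3 and 8 implied fragments in the mutants and 3 and 3 in the controls. It was not tested.

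**Figure D5:**
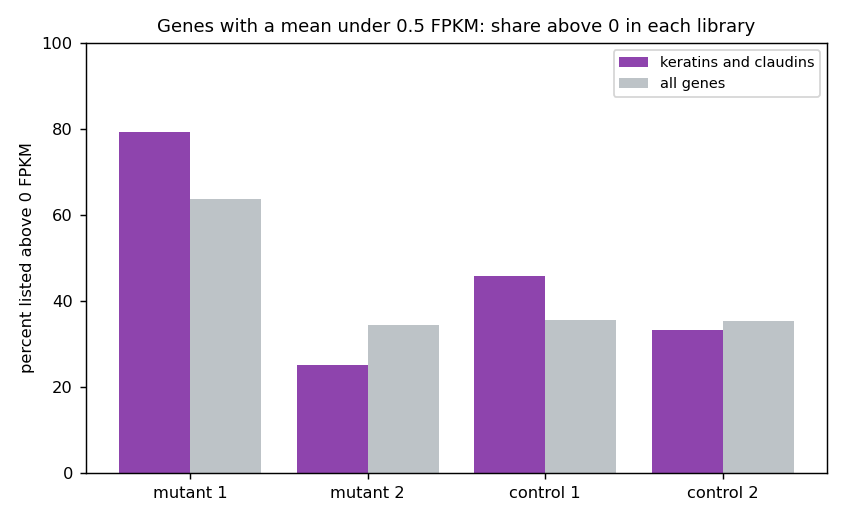
Percent of genes listed above 0 FPKM in each library, among the 48 keratins and claudins (purple) and all 9077 genes (grey) with a mean under 0.5 FPKM, mutants left of controls. Mutant 1 has 79.2% of the low members and 63.8% of all low genes above 0.

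Partners of the claudins at the tight junction did not pass either. Of 33 listed genes, 31 were tested, 0 passed, 25 had a change below 0 (against 82.6% of all genes) and 6 above 0, and their median was 0.011 relative to that of all genes. Lsr, the receptor that organises corners where cells meet, had 30.5 and 34.7 FPKM in the mutants and 49.1 and 40.4 FPKM in the controls, a log2 change of −0.45 (SE 0.19, limma adjusted p = 0.825). Amotl1, a scaffold of the junction, had 1.98 and 2.65 FPKM in the mutants and 3.91 and 3.13 FPKM in the controls. Both genes had both mutants below both controls, and Lsr was the 1 gene of 31 with an unadjusted p under 0.05, a rule that 4.12% of all genes met with lower levels in mutants. The most abundant were Spint2, a protease inhibitor, with 966 and 1002 FPKM in the mutants and 1082 and 1293 FPKM in the controls, and Epcam, which holds Cldn7 at the membrane, with 782 and 840 FPKM in the mutants and 864 and 1029 FPKM in the controls.

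Genes that tie keratins to the cell edge had no call. Of 21 desmosome and linker genes, 16 were tested, 0 passed the adjusted threshold and 0 had an unadjusted p under 0.05 in limma. That rule was met by 4.12% of all genes with lower and 0.7% with higher levels in mutants. A change below 0 was seen in 10 of the 16, against 82.6% of all genes, and a change above 0 in 6. Their median was 0.13 relative to that of all genes. Perp, a membrane protein of desmosomes, had 168 and 166 FPKM in the mutants and 157 and 186 FPKM in the controls, and Dsg2, the desmosomal cadherin of simple epithelia, had 89.6 and 72.2 FPKM in the mutants and 70.8 and 88.7 FPKM in the controls. The smallest p-values belonged to Eppk1, a keratin-binding plakin, with a log2 change of 0.55 (SE 0.29), and Tchp, a keratin-binding protein, with −0.38 (SE 0.24). Eppk1 had 9.89 and 5.39 FPKM in the mutants and 4.33 and 5.40 FPKM in the controls, with overlapping ranges. Tchp had 2.10 and 2.23 FPKM in the mutants and 3.33 and 2.66 FPKM in the controls, without overlap. Dsg1a, Dsg3 and Dsc1, the desmosomal cadherins of skin, were at 0 in every library.

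Intermediate filaments of other cells gave the same count. Of 17 genes, 14 were tested, 0 passed and 10 had a change below 0, against 82.6% of all genes. Of these 14, 1, Gfap, had an unadjusted p under 0.05 in limma, against 4.12% of all genes with lower levels in mutants. Krt222 is on this list too. Their median was 0.025 relative to that of all genes. Des, the muscle filament, had 143 and 192 FPKM in the mutants and 190 and 177 FPKM in the controls, and Vim, the filament of connective tissue and vessels, had 86.2 and 129 FPKM in the mutants and 141 and 127 FPKM in the controls. Gfap, the filament of enteric glia, had 1.44 and 1.54 FPKM in the mutants and 2.92 and 2.26 FPKM in the controls, a log2 change of −0.63 (SE 0.25, limma adjusted p = 0.825). Prph, the filament of enteric neurons, had 4.82 and 6.30 FPKM in the mutants and 7.20 and 8.66 FPKM in the controls. Glial markers summed to 19.8 and 22.3 FPKM in the mutants and 31.5 and 27.5 FPKM in the controls, with 7 of 7 tested changes below 0, against 82.6% of all genes.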

How the data were processed

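Per the labels' protocols, libraries were prepared from total RNA using TruSeq RNA reagents. Tools named in the submitters' processing notes are TopHat, Cufflinks, DESeq and bcl2fastq 1.8.4, with build mm9. The authors deposited FPKM for genes and isoforms of each library with an interval and a status, and, per the file headers, the coverage signal and length of each transcript. The authors' deposited table gives, from DESeq, group means of normalized counts (a signal), the mutant-over-control ratio, that ratio as log2, and p-values with and without adjustment.

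Entries with status OK in every library were summed per symbol, which left out 306 of 23699 and gave 23074 symbols. limma 3.58.1 under R 4.3.3, using a variance trend, tested log2(FPKM + 0.5) of the 13997 symbols that averaged 0.5 FPKM or more, with Benjamini-Hochberg adjustment over all genes at 0.05. This scale understates changes of low genes. Isoforms were treated alike, and the fit was tested on simulated data. No count model was run on FPKM. Implied fragments are (2 × FPKM / (upper bound − FPKM)) squared, for genes with 1 isoform, and cover counting error only. Depth came from the ratio of coverage to FPKM. Coordinates are on mm9 from the files, strands from GENCODE vM1, and promoters from RefSeq.

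The members and gene lists were chosen with earlier results of these data known. Named genes are members past the threshold, those with a mean of at least 5 FPKM, the smallest 3 p-values, the highest member of each class, those next to the 0.5 FPKM minimum, those with several isoforms, the 2 smallest p and 2 most abundant genes of each other list, and Nkx2-2. Other tested members were named after their values were seen. Accessions of 72 members were found in RefSeq, and 4 have another current symbol there. Alternatives covered pseudocount, filter, scaling, variance model, replicate block, each library left out, choice of entries and the authors' deposited table.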

Additional observations from a re-analysis of the deposited data

How the results depend on the processing

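With 2 libraries a group, leaving out a library left the other to vary like the opposite group. The count of members past the threshold was 0 in all alternatives except without control 2, so that it ran from 0 to 2 over the libraries left out (Krt12 and Krt84). In that alternative 362 of 13997 genes passed, instead of 9. The tight junction, desmosome and isoform counts were 0 in every alternative run. The keratin median log2 change ran from −0.31 to 0.14 and the claudin median from −0.41 to −0.088 over the libraries left out. The claudin median was −0.063 with no filter and −0.054 after median ratio rescaling. A minimum of 5 FPKM left 5 keratins in use instead of 11. The share of channel-forming claudins without Cldn25 to Cldn27, an alternative chosen after seeing the data, differed by −0.667 points.

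Deviations of same-numbered libraries from their group means correlated at −0.00217 over 13997 genes. With 2 libraries a group, this value cannot settle whether replicate numbers pair the libraries. With the replicate block, 0 members passed, and 195 genes in all did, instead of 9.

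Of 398 alternative values of member changes, 34 turned sign, in 15 of 25 members. After median ratio rescaling these were Cldn12 at 0.13, Cldn7 at 0.093, Krt18 at 0.12 and Krt19 at 0.14. Quantile normalization gave Cldn12 0.12, Cldn7 0.051, Krt18 0.091, Krt19 0.12 and Krt23 0.014. Scaling to an equal sum of epithelial markers, most of it Car1, gave Cldn12 0.074, Cldn7 0.042, Krt18 0.064 and Krt19 0.088. These rescalings also move the median of all genes, and the cause of each turn was not tested. Over the libraries left out, changes ran from −0.16 to 0.23 for Krt8, −0.19 to 0.12 for Krt19, −0.017 to 0.44 for Krt20, −0.27 to 0.15 for Krt18, −0.35 to 0.63 for Krt10, −0.70 to 2.61 for Krt12, −0.59 to 0.28 for Krt23 and −0.80 to 0.079 for Krt80. They ran from −0.19 to 0.028 for Cldn7, −0.57 to 0.21 for Cldn2, −0.28 to 0.53 for Cldn4, −0.13 to 0.041 for Cldn12, −1.08 to 0.64 for Cldn8, −0.18 to 0.68 for Cldn10 and −0.60 to 0.015 for Cldn14. Mutant 1 had the lowest depth, at 0.464 of control 1.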
